A study of Mus musculus with 56 samples.

Results

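Kidney transcriptomes of mice under nighttime-restricted feeding (NRF) were compared between ZT20 and ZT8 (zeitgeber time, counted in hours from lights on). Under NRF these are a time in the dark with food and a time in the light without food, so food and darkness coincide. The samples were taken by their labels, with 4 mice at ZT20 and 4 other mice at ZT8, which makes 8 of the 56 kidney samples of the series. All were female C57BL/6J mice aged 9 weeks that shared cages, ate freely for an acclimation period on a light-dark cycle, and then had food only at night for 7 days. Mice under daytime-restricted feeding (DRF), with 4 at each of the same times, were of the same sex, strain and age. The labels do not say that a mouse of one group was matched with a mouse of another, so the groups were compared as unpaired. Each p-value rests on a spread between mice that was pooled over all 14 groups of the series, not on these mice alone. A mouse kidney was the unit throughout, and ZT20 differs from ZT8 in light and in food together, which cannot be told apart in this pair.

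Kidney cells carry a transcription-translation clock in which BMAL1 (encoded by Arntl) with CLOCK or NPAS2 switches on genes through E-box elements, and PER, CRY and REV-ERB proteins act against them. Feeding and fasting reach the kidney through insulin, fatty acids, glucocorticoids and amino acids, and fasting shifts tubule cells towards fatty acid oxidation and ketone synthesis. The proximal tubule also makes glucose and reabsorbs most of the filtered solute.

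Reads rebuilt from the deposited values totalled 24.47 to 25.61 M in the 8 libraries. The log2 values of replicate libraries correlated across genes with r from 0.976 to 0.9946, and genes are not independent replicates. Levels are given as TPM, transcript abundance per length scaled to the same total in every library, with each mouse in the order of its replicate number. Renal cortex markers summed to between 39610 and 142600 TPM, and adrenal markers to at most 6.19 TPM. Kap, an abundant androgen-responsive proximal tubule transcript, took 2.85 to 9.85% of all TPM at ZT8 and 7.06 to 13.3% at ZT20. It belongs to the cortex list and made up most of the cortex sum in each library. Its level was 28520 TPM where that sum was lowest and 133200 TPM where it was highest. Adipocyte markers were uneven, with a sum of 363 and 817 TPM in ZT20 mice 1 and 2 and of 25.1 to 98.3 TPM in the other 6. None of the 7 tested adipocyte markers passed the test (median log2 difference 1.46), and Lep was under 1 TPM in all 8 libraries. Gene positions are those of RefSeq on GRCm38.

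Differences between the phases were widespread and mostly small. Of 13336 genes with a mean of at least 1 TPM, 4433 differed by limma at an adjusted p of under 0.05 (33.2%), and 1020 (7.65%) also by at least 1.5-fold. At ZT20, 1566 genes were higher (11.7%) and 2867 lower (21.5%). The median difference was 1.32-fold among the higher and 1.29-fold among the lower genes. A change of at least 2-fold was seen in 122 of the higher and 187 of the lower genes, and one of at least 4-fold in 16 and 31. The 4 mice of each phase did not overlap in 1226 of the higher genes (78.3%), where 11.1% of all genes tested were separated in that direction. They did not overlap in 2297 of the lower genes (80.1%), where the background was 20.6%. In bulk kidney, fewer cells of a type and less RNA per cell cannot be told apart.

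The balance of directions depended on the scaling. Higher genes made up 35.3% of the calls on TPM, 49.5% after median-of-ratios scaling and 47.3% with the deposited values. With median-of-ratios scaling 2371 genes were higher (17.8%) and 2416 lower (18.1%), and 3910 genes were called the same way under both scalings with 0 called in opposite ways. The median log2 difference over all genes was -0.06 on TPM and 0.00 with the median of ratios. The part of Kap in that balance was not tested. The share called was 26.2% of genes under 5 TPM, 31.9% from 5 to 20 TPM, 37.2% from 20 to 100 TPM and 36.7% of genes with at least 100 TPM.

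The NRF time course placed most called genes at an extreme near these times. With ZT0 and ZT24 averaged, the higher genes had their highest mean at ZT0 in 35.1%, at ZT20 in 33.4% and at ZT16 in 24.1%. Their lowest mean fell at ZT8 in 57.5% and at ZT12 in 36.2%. The lower genes were highest at ZT8 in 62.2%, and lowest at ZT20 in 50.2% or at ZT16 in 38.5%. Calling genes on ZT20 and ZT8 favours extremes at those times.

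**Figure D1:**
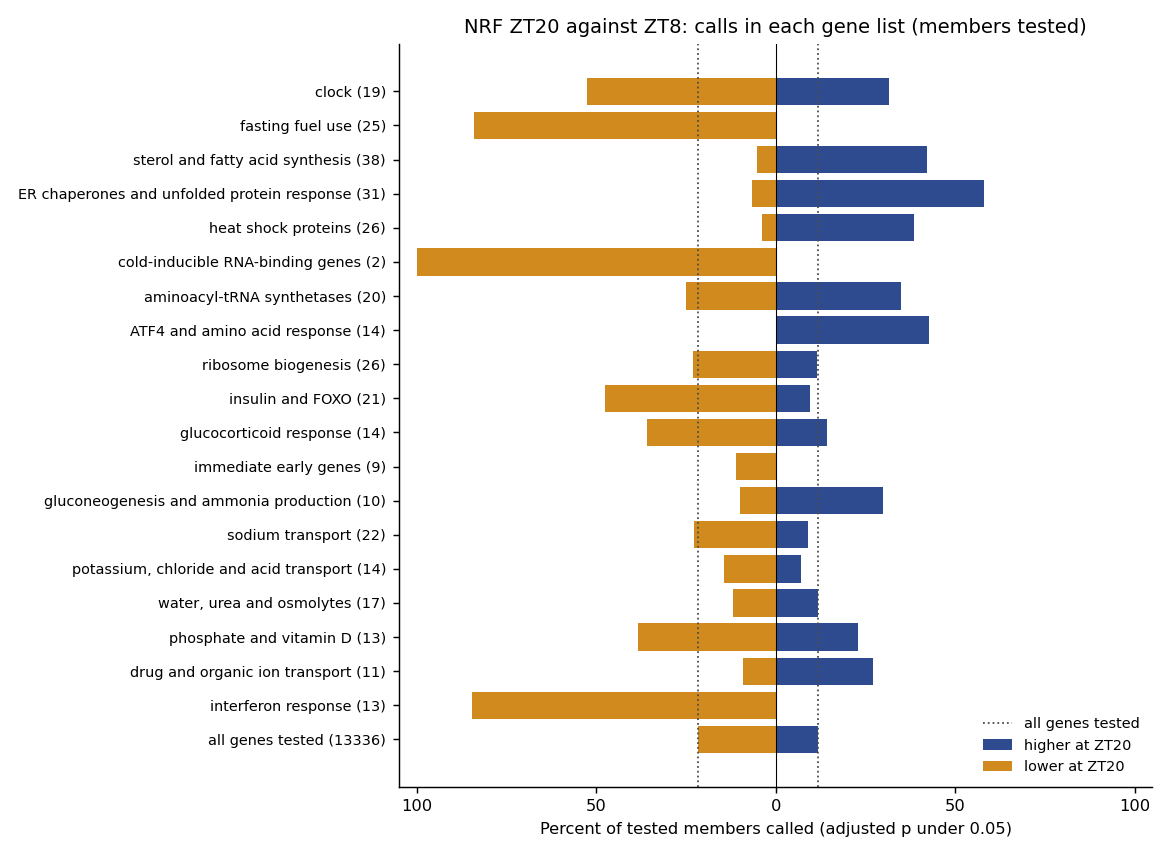
The percent of tested members called higher (right) and lower (left) at ZT20 is shown for 19 gene lists, with the number of tested members in brackets and dotted lines at the values of all genes tested (11.7% and 21.5%). Fasting fuel use and interferon response genes lay almost wholly on the lower side, and chaperone and sterol and fatty acid synthesis genes mainly on the higher side.

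Of the 19 clock genes, 6 were higher and 10 lower at ZT20, with a median log2 difference of -0.45. Nr1d1 (chromosome 11, 98767932 to 98775377) encodes REV-ERBα, the repressor of Arntl, and had the largest fall of all genes tested with a mean of at least 10 TPM over the 8 libraries and separate groups. In the 4 mice it was 187, 217, 180 and 203 TPM at ZT8 and 6.66, 5.62, 8.66 and 6.51 TPM at ZT20. Every ZT20 mouse was far below every ZT8 mouse, and the ratio of the means was 28.7 (log2 difference -4.66 ± 0.26, SE, limma adjusted p = 1.23e-18). Its paralogue Nr1d2 fell from 97.4 ± 9.38 to 13 ± 1.5 TPM (SD, n = 4). Rora, which encodes an activator that competes with REV-ERB for the same sites, was 17.8 ± 1.60 and 15.7 ± 0.896 TPM and did not pass (limma adjusted p = 0.22).

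The activators were higher at ZT20 than at ZT8. Arntl (chromosome 7, 113178471 to 113314126) was 1.98, 1.38, 1.77 and 1.09 TPM at ZT8 and 15.5, 21.3, 16.5 and 18.1 TPM at ZT20. Its groups did not overlap (2.89 ± 0.18 on the log2 scale, limma adjusted p = 4.29e-17). Npas2, which can take the place of CLOCK, was 0.83 to 2.3 TPM and then 10.3 to 18.9 TPM. Clock itself rose less, from 13.8 ± 1.18 to 19.4 ± 1.36 TPM.

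Among the repressors the direction was mixed. Cry1 was 5.15, 3.76, 3.46 and 5.56 TPM at ZT8 and 27.9, 26.0, 29.4 and 27.5 TPM at ZT20. It was the one repressor called higher (2.41 ± 0.20 on the log2 scale, limma adjusted p = 7.95e-13). Ciart, which encodes CHRONO, was 14.4, 24.8, 15.5 and 45.4 TPM at ZT8 and 3.68, 2.47, 3.0 and 2.42 TPM at ZT20. Its ZT8 mice were spread over a wide range, yet all lay above the ZT20 mice (-2.60 ± 0.20 on the log2 scale). Per3 fell from 25.2 ± 4.23 to 7.04 ± 1.07 TPM and Bhlhe41 from 4.92 ± 1.19 to 1.38 ± 0.146 TPM, again with separate groups. Per1 overlapped, with 18.8 to 36.3 TPM at ZT8 and 7.46 to 23.6 TPM at ZT20 (limma adjusted p = 0.0047, and 0.169 without ZT20 mice 1 and 2). Per2 was 20.4 ± 4.52 and 27.1 ± 2.81 TPM and was not called on TPM (limma adjusted p = 0.0707), though it was with the median of ratios (0.027). Both times lay on the flanks of a Per2 peak of 67.2 ± 3.40 TPM at ZT16. Cry2 stood at 17.3 ± 3.90 and 14.6 ± 0.458 TPM (limma adjusted p = 0.236). Bhlhe40 was 86.0 to 249.5 TPM at ZT8 and 89.0 to 125 TPM at ZT20, and its call (limma adjusted p = 0.0298) was lost with the median of ratios (0.07) and without ZT8 mouse 3 or 4 or ZT20 mouse 3 or 4.

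The output factors of the PAR bZIP family, which act through D-box elements, were lower at ZT20, and their competitor Nfil3 was higher. Dbp (chromosome 7, 45705100 to 45710203) was 137, 173, 160 and 170 TPM at ZT8 and 6.17, 4.97, 6.33 and 6.05 TPM at ZT20. That was a 27.3-fold difference of the means (-4.55 ± 0.32 on the log2 scale, limma adjusted p = 4.32e-15). Tef fell from 170 ± 44.8 to 70.3 ± 3.47 TPM with no overlap, while Hlf fell from 96.2 ± 23.8 to 67.9 ± 5.86 TPM with overlap. Nfil3 rose from 7.57 ± 1.54 to 44.7 ± 8.35 TPM.

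The promoters of 3 clock genes that moved in different ways are shown to set their elements beside these values. In RefSeq windows of 300 bases on GRCm38.p6 (250 before and 50 after the start), the E-box CACGTG was found in 5 of 16 clock genes with a window, and the D-box TTATGTAA in Per3 alone, searching both strands. The E-box was present in 7.15% of all 32851 windows and the D-box in 0.938%. By gene, the shares were 11.4% and 0.744% of the tested genes with a window. The bases are written 5′ to 3′ along the gene's strand, with the motifs in capitals. Ciart (chr3:95882252-95882404, minus strand) had 3 E-boxes, which began 116, 58 and 44 bases before the start, Cry1 (chr10:85185065-85185174, minus strand) had 1 at 60 bases, and Per3 (chr4:151044756-151044915, minus strand) had 2 D-boxes at 205 and 158 bases.
Ciart: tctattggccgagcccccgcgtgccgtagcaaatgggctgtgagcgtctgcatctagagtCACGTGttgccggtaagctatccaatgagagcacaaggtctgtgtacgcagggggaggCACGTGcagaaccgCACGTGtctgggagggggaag
Cry1: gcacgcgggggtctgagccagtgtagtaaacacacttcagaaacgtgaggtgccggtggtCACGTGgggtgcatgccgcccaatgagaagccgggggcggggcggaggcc
Per3: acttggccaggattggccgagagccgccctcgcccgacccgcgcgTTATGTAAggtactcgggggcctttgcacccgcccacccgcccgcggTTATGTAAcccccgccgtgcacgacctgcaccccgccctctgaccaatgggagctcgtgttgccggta
Ciart and Cry1 thus shared the E-box while Ciart was lower and Cry1 higher at ZT20. Over all tested genes with a window, the E-box was in 12.0% of the higher and 12.4% of the lower genes, compared with 11.4% of all.

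**Figure D2:**
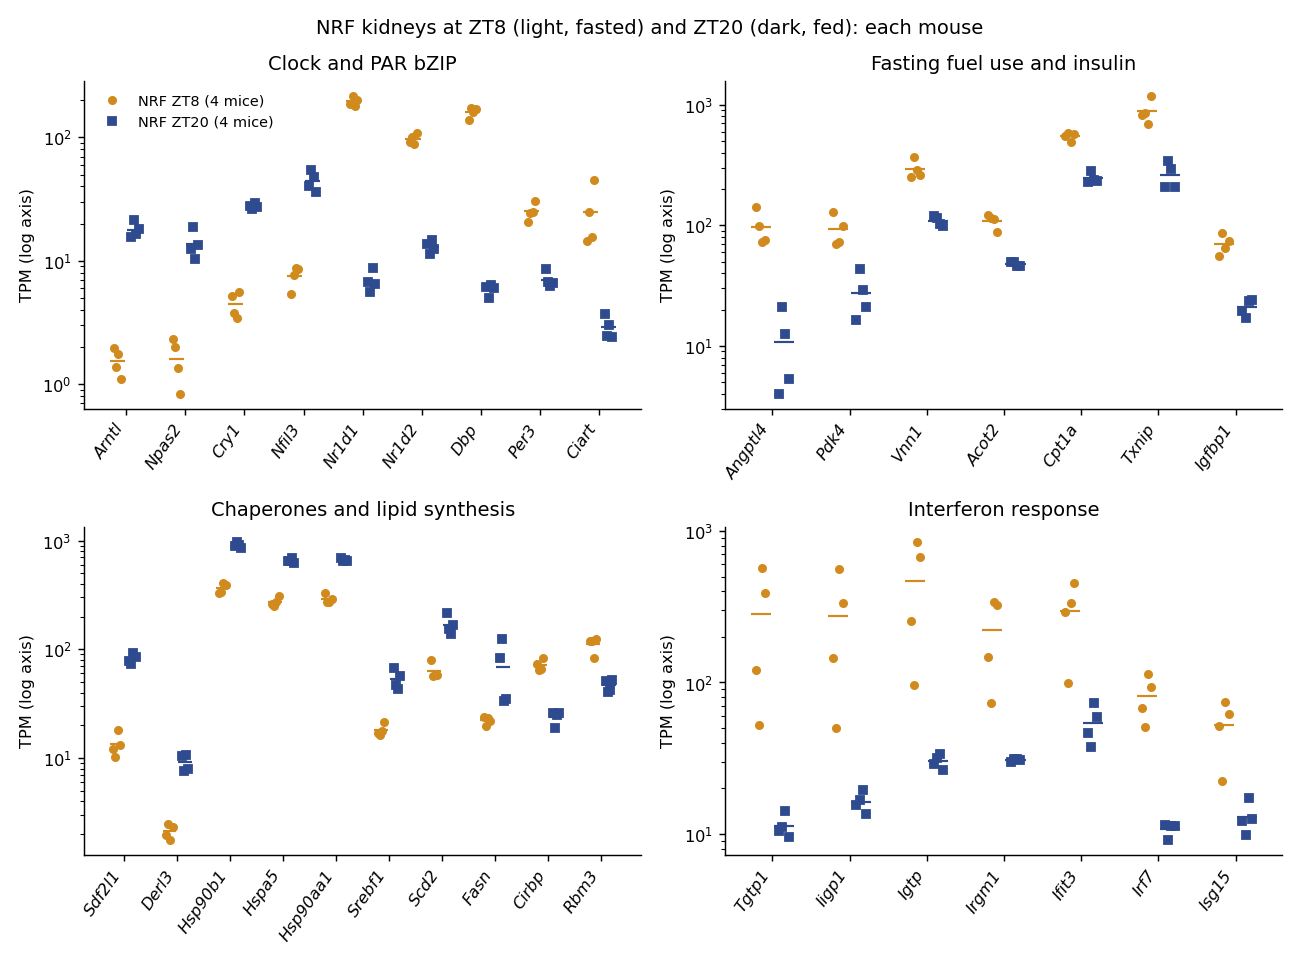
Each point is 1 mouse, with TPM on a log axis, for ZT8 (circles, light and fasted) and ZT20 (squares, dark and fed) in 4 panels of genes, and short lines mark the means of 4 mice. The groups were separate for every gene drawn; the ZT8 mice of the interferon panel covered up to about an order of magnitude, for example 52.1 to 570 TPM for Tgtp1, while the ZT20 mice lay close together.

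Most genes of the fasting fuel list, which serve fatty acid use, were lower at ZT20. Of 25 tested members 0 were higher and 21 lower, with a median log2 difference of -0.65, and the count was 0 and 21 with the median of ratios. Angptl4 (chromosome 17, 33774900 to 33781575) encodes a secreted inhibitor of lipoprotein lipase that fasting raises in many tissues. It was 142, 98.0, 73.0 and 75.2 TPM at ZT8 and 3.98, 21.1, 12.6 and 5.35 TPM at ZT20. All ZT20 mice lay below all ZT8 mice (-3.26 ± 0.42 on the log2 scale, limma adjusted p = 3.79e-08). Pdk4, a kinase that turns off pyruvate dehydrogenase and so spares glucose, fell from 93.0 ± 28.1 to 27.4 ± 11.8 TPM (limma adjusted p = 4.24e-05).

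The enzymes that carry and oxidise fatty acids moved in the same direction but by smaller factors. Cpt1a, which admits long-chain fatty acids to mitochondria, was 555, 583, 488 and 569 TPM at ZT8 and 228, 283, 239 and 235 TPM at ZT20. Within each phase the mice differed little, and the groups were separate (-1.15 ± 0.10 on the log2 scale, limma adjusted p = 7.95e-13). The mitochondrial thioesterase Acot2 fell from 109 ± 15.2 to 47.7 ± 2.38 TPM and the pantetheinase Vnn1 from 292 ± 54.6 to 109 ± 9.57 TPM. In all, 8 of 10 fatty acid oxidation genes, 7 of 8 peroxisomal and fatty acid hydroxylation genes and 3 of 3 regulators were called lower.

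Insulin and FOXO genes went mainly the same way, with 2 of 21 tested members higher and 10 lower (median log2 difference -0.27). Txnip, which encodes an inhibitor of glucose uptake and of thioredoxin, was 826.5, 859, 689 and 1184 TPM at ZT8 and 208, 343, 293 and 209 TPM at ZT20. Its groups did not overlap (-1.76 ± 0.20 on the log2 scale, limma adjusted p = 2.97e-09). Igfbp1, a binding protein gene that insulin represses in liver, was 56.0 to 87.2 TPM and then 17.1 to 24.1 TPM. Depp1, a FOXO target, split the ZT8 mice into 52.0 and 56.9 TPM in mice 1 and 2 and 16.4 and 20.3 TPM in mice 3 and 4, all above the 3.85 to 10.7 TPM of ZT20. Irs2, the insulin receptor substrate, fell from 8.73 ± 1.95 to 4.66 ± 0.643 TPM, and the factor Foxo3 from 68.5 ± 15.7 to 39.9 ± 3.73 TPM.

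Some lipid synthesis genes were higher at ZT20. In the sterol and fatty acid synthesis list 16 of 38 tested members were higher and 2 lower, with a median log2 difference of 0.40, and with the median of ratios 21 were higher. Without ZT20 mice 1 and 2, the libraries with the most adipocyte markers, 11 were higher and 2 lower. Srebf1 (chromosome 11, 60199084 to 60224186) encodes SREBP1, the factor that insulin induces to drive fatty acid synthesis. It was 17.0, 16.2, 17.8 and 21.3 TPM at ZT8 and 67.0, 46.8, 42.9 and 56.3 TPM at ZT20. The groups were separate (1.49 ± 0.16 on the log2 scale, limma adjusted p = 2.79e-10). The desaturase Scd2 rose from 63.0 ± 10.9 to 169 ± 33.5 TPM.

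Enzymes of the cholesterol pathway were among them. Fdps, which makes farnesyl diphosphate, rose from 14.3 ± 2.48 to 27.4 ± 5.19 TPM, and Mvd from 46.9 ± 4.54 to 81.1 ± 8.45 TPM, both with separate groups. Fasn and Pnpla3 were highest in the libraries with the most adipocyte markers. Fatty acid synthase, Fasn, was 19.6 to 24 TPM at ZT8 and 83.4, 126, 33.5 and 35.2 TPM at ZT20, highest in mice 1 and 2, and did not pass (limma adjusted p = 0.104, and 0.629 without those mice). Pnpla3, a triglyceride lipase gene, was 1.24 to 2.71 TPM at ZT8 and 15.5, 23.8, 9.60 and 9.74 TPM at ZT20, and its call (limma adjusted p = 0.0139) was lost without those mice (0.139). The part of adipose RNA in these values was not tested.

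Most chaperones of the endoplasmic reticulum (ER), which fold secreted and membrane proteins, were higher at ZT20. In the ER list 18 of 31 tested members were higher and 2 lower, with a median log2 difference of 0.29. Among chaperones and folding enzymes 14 of 16 were higher and 1 lower (median 1.0), while 0 of 6 sensors and transcription factors of the unfolded protein response passed in either direction. Sdf2l1 (chromosome 16, 17130138 to 17132383), a partner of BiP, was 12.1, 10.1, 18.1 and 13.3 TPM at ZT8 and 78.7, 73.2, 91.7 and 84.5 TPM at ZT20. The ratio of the means was 6.12 (2.55 ± 0.19 on the log2 scale, limma adjusted p = 1.65e-14), the largest rise among genes with a mean of at least 10 TPM over the 8 libraries and separate groups, Mup22 excepted. Hsp90b1, which encodes GRP94, was 328, 334, 406 and 387 TPM in the light and 885, 972, 918 and 851 TPM in the dark. Hspa5, which encodes BiP, rose from 274 ± 25.0 to 657 ± 28.6 TPM, with every ZT20 mouse above every ZT8 mouse. Creld2 rose from 42.5 ± 5.22 to 101 ± 9.27 TPM, Hyou1 from 34.3 ± 2.32 to 80.2 ± 4.53 TPM, and Derl3, of ER-associated degradation, from 2.12 ± 0.329 to 9.12 ± 1.58 TPM.

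The ER stress response element, searched here as CCAAT, any 9 bases and CCACG on both strands, was in the windows of 9 of 25 ER list genes with a window, Hspa5, Hsp90b1, Dnajc3, Creld2, Calr, Canx, Pdia6, Derl3 and Syvn1. It was in 0.119% of all windows and in 0.188% of tested genes with one, 0.9% of the higher and 0.0427% of the lower genes. Hsp90b1 (chr10:86705510-86705694, minus strand) had the element 212 bases before the start and, in reverse orientation, 107 bases before it. Creld2 (chr15:88819460-88819598, plus strand) had it in reverse orientation at 126 bases. These are printed because both genes more than doubled in level at ZT20, with the element in capitals.
Hsp90b1: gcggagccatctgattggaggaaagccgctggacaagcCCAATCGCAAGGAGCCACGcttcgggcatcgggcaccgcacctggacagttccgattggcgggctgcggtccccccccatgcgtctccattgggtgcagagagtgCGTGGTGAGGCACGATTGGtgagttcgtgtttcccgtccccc
Creld2: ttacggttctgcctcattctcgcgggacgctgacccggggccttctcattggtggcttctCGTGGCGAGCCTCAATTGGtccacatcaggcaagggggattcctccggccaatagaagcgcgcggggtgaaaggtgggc
The match is a description of these letters, and binding was not measured.

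Cytosolic heat shock genes rose in part. In the heat shock list 10 of 26 tested members were higher and 1 lower (median log2 difference 0.28), and 13 and 0 with the median of ratios. Hsp90aa1, the inducible cytosolic HSP90, was 333, 274, 275 and 291 TPM at ZT8 and 689, 645, 660 and 652 TPM at ZT20. The mice of each phase lay close together (1.18 ± 0.13 on the log2 scale, limma adjusted p = 1.49e-09). The HSP90 co-chaperones Fkbp4 (196 ± 12.3 to 382 ± 35.6 TPM), Chordc1 (14.1 ± 0.882 to 26.5 ± 4.98 TPM), Ahsa1 (35.4 ± 2.16 to 60.9 ± 3.23 TPM) and Ahsa2 (16.4 ± 1.25 to 30.1 ± 2.15 TPM) rose too. So did Hspe1, the mitochondrial co-chaperonin, from 192 ± 14.2 to 318 ± 11.1 TPM. Hspa8, the constitutive HSC70, was 1411 ± 227 and 1323 ± 419 TPM (limma adjusted p = 0.459), with a peak of 4277 ± 335 TPM between them at ZT16. Without ZT20 mice 1 and 2 it was lower at ZT20 by 0.465 on the log2 scale (limma adjusted p = 0.00558). The heat shock element was searched on both strands as GAA, any 2 bases, TTC, any 2 bases and GAA. It was in the windows of 4 of 20 listed genes with a window, Hsph1, Chordc1, Hspd1 and Hspe1. Over all windows the share was 0.603%, and over tested genes with a window it was 0.556%.

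Both cold-inducible RNA-binding genes fell. Cirbp was 72.8, 64.4, 65.6 and 82.4 TPM at ZT8 and 25.7, 19.0, 25.0 and 25.9 TPM at ZT20, and Rbm3 was 82.6 to 124 TPM and then 40.5 to 52.1 TPM. The groups were separate for both (Cirbp -1.54 ± 0.14, limma adjusted p = 4.34e-12; Rbm3 -1.23 ± 0.11, 1.80e-12). Body temperature was not part of these data.

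**Figure D3:**
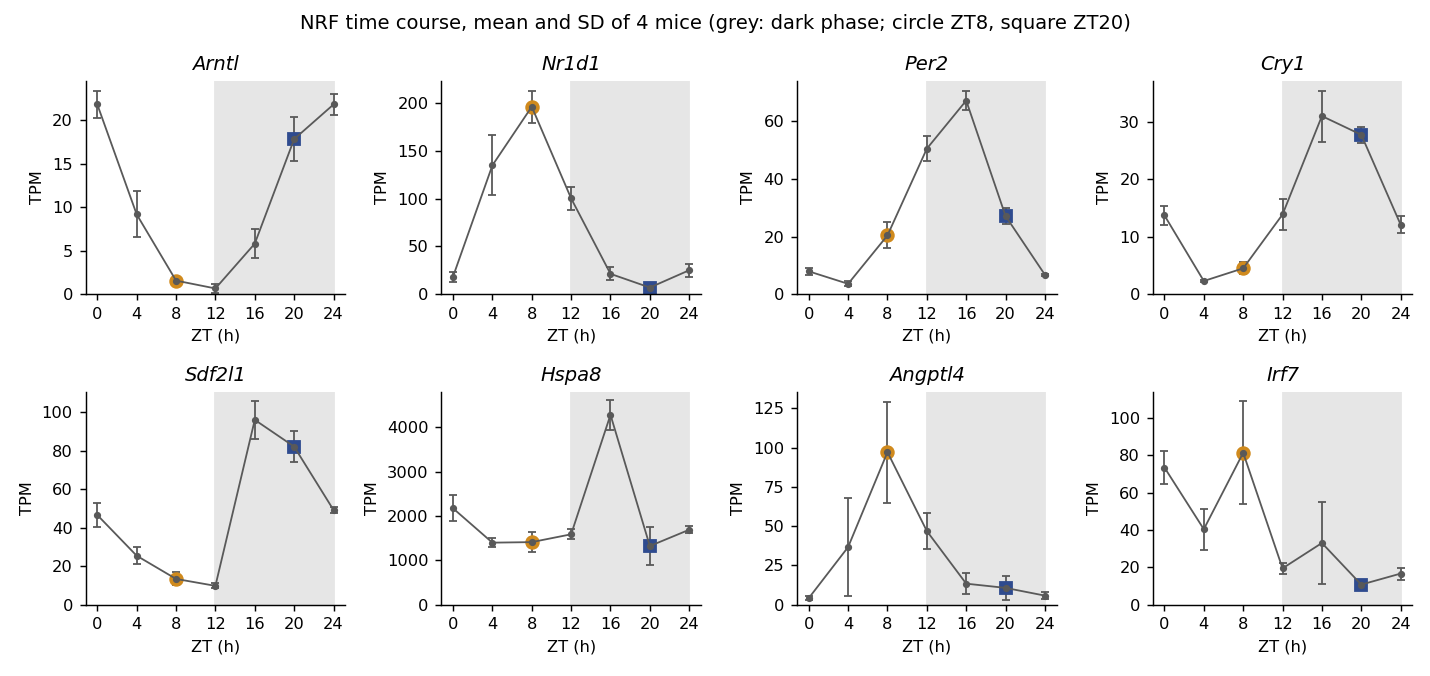
Mean and SD (n = 4 mice) of TPM against ZT under NRF are shown for 8 genes, with the dark phase in grey, ZT8 as a circle and ZT20 as a square. Arntl and Nr1d1 were near opposite extremes at ZT8 and ZT20, whereas Per2 and Hspa8 stood at similar levels on either side of a ZT16 peak.

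Genes of protein synthesis were called in both directions. Of 20 cytosolic aminoacyl-tRNA synthetases, which charge tRNAs with amino acids, 7 were higher and 5 lower, with a median log2 difference of 0.06. The share lower was near that of all genes tested (21.5%), and the share higher was above it (11.7% of all genes). With the median of ratios 10 were higher and 4 lower, and without ZT20 mice 1 and 2 the counts were 4 and 3. Cars was 6.77 to 8.62 TPM at ZT8 and 9.98 to 12.3 TPM at ZT20, while Lars was 33.4 to 42.1 TPM and then 23.9 to 26.8 TPM. Both pairs of groups were separate and moved in opposite directions (Cars 0.52 ± 0.08, Lars -0.60 ± 0.08 on the log2 scale). Yars (16.4 ± 1.2 to 22.1 ± 1.08 TPM), Aars (32.8 ± 2.78 to 42.3 ± 1.19 TPM) and Farsb (56.3 ± 2.53 to 70.1 ± 3.83 TPM) also rose, and Qars fell from 48.9 ± 1.87 to 34.9 ± 1.14 TPM.

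Targets of ATF4, the factor of the amino acid response, were higher in 6 and lower in 0 of 14 tested genes (median log2 difference 0.28). Of all genes tested 11.7% were higher and 21.5% lower. Chac1, a glutathione-degrading enzyme gene, was 1.85, 0.978, 1.14 and 0.782 TPM at ZT8 and 4.0, 2.57, 9.44 and 10.8 TPM at ZT20. All ZT20 mice were above the ZT8 mice, with mice 3 and 4 highest (1.67 ± 0.30 on the log2 scale, limma adjusted p = 2.18e-05). Psph, of serine synthesis, rose from 8.22 ± 1.04 to 11.7 ± 0.639 TPM. Asns, asparagine synthetase, was 5.31 to 13.6 TPM and then 9.61 to 22.1 TPM, and Trib3 was 1.43 to 2.45 TPM and then 1.87 to 3.91 TPM. Both overlapped, and their calls (limma adjusted p = 0.0138 and 0.0248) were lost without some of the libraries, with p up to 0.065 and 0.132. Those libraries were ZT8 mouse 2 and ZT20 mice 3 and 4 for both genes, with ZT8 mouse 4 for Asns and ZT8 mouse 3 for Trib3.

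Ribosome biogenesis genes had call shares near those of all genes, with 3 of 26 higher and 6 lower (median log2 difference -0.08), and 7 and 5 with the median of ratios. The nucleolar proteins nucleolin, Ncl (102 ± 3.94 to 82.3 ± 4.81 TPM), and nucleophosmin, Npm1 (270 ± 23.8 to 222 ± 7.89 TPM), fell. Bop1, of large subunit processing, rose from 24.6 ± 0.980 to 30.4 ± 1.34 TPM.

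Among glucocorticoid response genes 2 of 14 were higher and 5 lower, with a median log2 difference of -0.41. The zinc finger factor Zbtb16 was 6.03, 12.5, 9.05 and 37.9 TPM at ZT8 and 2.52, 2.81, 5.41 and 1.73 TPM at ZT20. ZT8 mouse 4 was far above the others, and the groups were still separate (-1.82 ± 0.46 on the log2 scale, limma adjusted p = 0.00163). The metallothioneins Mt1 (668 ± 219 to 325 ± 58.4 TPM) and Mt2 (500 ± 151 to 193 ± 49.1 TPM), which bind zinc and copper, fell as well. Their sequences are similar, so reads may be split between them. In contrast, Tsc22d3, which encodes GILZ, rose from 23.4 ± 5.84 to 42.3 ± 5.28 TPM, and Hsd11b1, the enzyme that regenerates active glucocorticoid, from 22.2 ± 6.35 to 49.2 ± 5.78 TPM. Members of this list thus did not share a direction. Of 9 immediate early genes, which answer acute stimuli, Ier2 alone was called, lower by 0.37 on the log2 scale (limma adjusted p = 0.0487), and the call was lost with the median of ratios (0.10) and without ZT20 mouse 1 or 2 or any 1 of the ZT8 mice.

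Among renal transport and metabolism genes the calls went in both directions. In the sodium list 2 of 22 were higher and 5 lower (median log2 difference -0.10). These shares were near those of all genes tested (11.7% higher and 21.5% lower). Slc9a3, the proximal sodium-proton exchanger NHE3, was 111, 114, 109 and 122 TPM at ZT8 and 54.1, 72.5, 68.6 and 59.1 TPM at ZT20. Its groups were well apart (-0.84 ± 0.11 on the log2 scale, limma adjusted p = 5.96e-08). Scnn1a, the α subunit of the epithelial sodium channel ENaC, moved the other way, from 167, 160, 163 and 196 TPM up to 233, 227, 217 and 234 TPM. Nedd4l, a ubiquitin ligase that removes ENaC from the membrane, fell from 40.4 ± 5.13 to 30.9 ± 1.57 TPM, and the clock-linked deubiquitinase gene Usp2 from 129 ± 34.5 to 73.0 ± 7.68 TPM. The ENaC-cleaving protease Prss8 fell from 681 ± 53.9 to 568 ± 34.9 TPM, a call lost with the median of ratios (limma adjusted p = 0.14). The kinase Sgk1, which aldosterone and insulin act on, was 37.6 to 143 TPM and 75.3 to 116 TPM (limma adjusted p = 0.4).

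In the potassium, chloride and acid list 1 of 14 was higher and 2 lower (4 and 2 with the median of ratios). On TPM neither share exceeded that of all genes tested (11.7% higher and 21.5% lower). Car14, a membrane carbonic anhydrase, was 128 to 237 TPM at ZT8 and 89.6 to 132 TPM at ZT20, with overlap. Slc4a4, the basolateral bicarbonate exit, was 428 ± 109 and 291 ± 57.7 TPM, and its call (limma adjusted p = 0.0149) was lost without ZT8 mouse 2 or 4 or ZT20 mouse 3, with p up to 0.088. Of 10 gluconeogenesis and ammonia genes 3 were higher and 1 lower. G6pc, glucose-6-phosphatase, was 335, 816, 424 and 860 TPM in the light and 1523, 1609, 965 and 1164 TPM in the dark. Despite the wide spread at ZT8, every ZT20 mouse was higher (1.2 ± 0.21 on the log2 scale, limma adjusted p = 1.14e-05). Pck1, the rate-limiting enzyme of gluconeogenesis, was 7774 ± 1578 and 5556 ± 561 TPM and did not pass (limma adjusted p = 0.078). The glutamine carrier Slc38a3, which feeds ammonia production, fell from 151 ± 18.0 to 72.9 ± 19.0 TPM, and the ammonia transporter Rhbg rose from 85.9 ± 14.2 to 123 ± 18.5 TPM.

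Of 17 tested genes of water, urea and osmolyte handling, 2 were higher and 2 lower. The share higher was near that of all genes tested (11.7%), and the share lower was below it (21.5% of all genes). The vasopressin receptor gene Avpr1a was 9.52 to 13.4 TPM at ZT8 and 21.8 to 42.2 TPM at ZT20 (1.38 ± 0.14 on the log2 scale, limma adjusted p = 7.20e-11). Aqp3, the basolateral water channel, fell from 235 ± 23.6 to 152 ± 10.3 TPM. Avpr2, the antidiuretic receptor, overlapped at 18.6 to 35.9 and 31.8 to 37.9 TPM, and its call (limma adjusted p = 0.0252) was lost without any of 6 libraries, with p up to 0.0969. Aqp2, the vasopressin-regulated channel of the collecting duct, was 799, 264, 299 and 287 TPM at ZT8 and 253, 239, 380 and 322 TPM at ZT20 (limma adjusted p = 0.555). The high value belonged to ZT8 mouse 1, whose medulla marker sum was 2485 TPM, compared with 1092 to 1251 TPM in the other ZT8 mice and 1112 to 1455 TPM at ZT20. Of 12 medulla markers 1 was higher and 1, Aqp3, was lower, and their part in these values was not tested. Aqp3 belongs to both lists, so the medulla sum is not separate from the water genes.

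For phosphate and vitamin D, 3 of 13 tested genes were higher and 5 lower. Vdr, the vitamin D receptor, was 247, 290, 289 and 283 TPM at ZT8 and 192, 184, 149 and 172 TPM at ZT20, with separate groups (-0.67 ± 0.11 on the log2 scale, limma adjusted p = 9.75e-06). Cyp24a1, the enzyme that degrades active vitamin D, was 97.3, 194, 190 and 257 TPM and then 18.8, 33.4, 47.5 and 102 TPM. These groups just overlapped, and the call (limma adjusted p = 0.0046) was lost without ZT20 mice 1 and 2 (0.158). Cyp27b1, which makes active vitamin D, was 5.12 to 27.3 TPM and then 3.37 to 7.46 TPM, and its call (limma adjusted p = 0.0489) was lost with the median of ratios, without ZT8 mouse 2 or 4 and without ZT20 mouse 1, 3 or 4, with p up to 0.258. Cyp2r1, a 25-hydroxylase, rose from 1.74 ± 0.237 to 3.36 ± 0.711 TPM. Klotho, Kl, the co-receptor of FGF23, rose from 238 ± 41.6 to 353 ± 67.6 TPM (limma adjusted p = 0.00115), a call lost without ZT20 mice 1 and 2 (0.119). In the drug transport list 3 of 11 were higher and 1 lower, with Slc22a2, the cation transporter OCT2, at 268 ± 34.8 and 348 ± 16.7 TPM and Slc22a7, the anion transporter OAT2, at 227 ± 116 and 448 ± 146 TPM.

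Segment markers were counted with sampling in mind, and the part of sampling in these calls was not tested. Of 11 tested renal cortex markers 3 were higher and 1 lower, of 8 thick limb and distal tubule markers 3 were higher and 0 lower, and of 5 podocyte markers 1 was higher and 0 lower. Of all genes tested 11.7% were higher and 21.5% lower. With the median of ratios 3 podocyte markers were higher. Without ZT20 mice 1 and 2 the markers called higher were 0 for cortex, 2 for thick limb and distal tubule and 0 for podocytes. The distal calcium-binding protein genes Calb1 (247 ± 59.1 to 520 ± 120 TPM) and Pvalb (58.4 ± 16.7 to 125 ± 18.8 TPM) rose. The proximal enzyme Cyp2e1 fell from 365 ± 152 to 173 ± 31.4 TPM. Between ZT4 and ZT16 under NRF it was called in the opposite direction (1.05 on the log2 scale, limma adjusted p = 0.00154). Miox, the inositol oxygenase of the proximal tubule, rose from 2865 ± 584 to 3965 ± 573 TPM, a call lost without ZT8 mouse 1 and without ZT20 mice 1 and 2 (0.147). Kap itself was 28520 to 98480 TPM and 70560 to 133200 TPM (limma adjusted p = 0.113).

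Most interferon response genes were higher at ZT8, where the mice spread widely. Of 13 tested members 0 were higher and 11 lower at ZT20, with a median log2 difference of -1.45, and the same counts held with the median of ratios. Irf7, the factor that amplifies the type I interferon response, was 68.1, 50.5, 113 and 93.3 TPM at ZT8 and 11.6, 9.12, 11.2 and 11.3 TPM at ZT20. The groups were far apart (-2.74 ± 0.28 on the log2 scale, limma adjusted p = 1.76e-10). Isg15, a ubiquitin-like modifier, fell from 52.6 ± 22.4 to 13 ± 3.15 TPM, and Ifit1 from 59.5 ± 29.9 to 10.4 ± 1.06 TPM. Ifit3 was 99.2 to 454 TPM at ZT8 and 37.4 to 72.9 TPM at ZT20. Its sequence is close to that of a neighbouring copy, so its level is uncertain.

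Immunity-related GTPases, which interferon-γ induces against intracellular pathogens, and guanylate-binding proteins were 6 of the 10 genes with the largest falls. Igtp was 253, 95.8, 845 and 677 TPM at ZT8 and 29.0, 31.7, 33.6 and 26.5 TPM at ZT20. Irgm1 was 147, 73.3, 339 and 322 TPM and then 30.01, 31.5, 31.1 and 30.6 TPM. In both genes mice 3 and 4 were highest and mouse 2 lowest at ZT8, and the ZT20 mice hardly differed. Iigp1 (274 ± 227 to 16.4 ± 2.54 TPM), Irgm2 (212 ± 136 to 23.7 ± 1.44 TPM), Tgtp1 (283.5 ± 241 to 11.3 ± 2.06 TPM), Gbp6 (128 ± 104 to 11.2 ± 0.885 TPM) and Gbp10 (33.8 ± 35.5 to 1.82 ± 0.358 TPM) fell in the same way. Tgtp1, Gbp6 and Gbp10 have near-identical relatives and their levels are uncertain.

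Summed over the list, interferon genes were 1040, 509, 1566 and 1456 TPM in the ZT8 mice and 296 to 347 TPM in the ZT20 mice. Under NRF the sums were 770 to 1069 TPM at ZT0 but 359 to 419 TPM at ZT24, the same clock time in other mice, and they were 340 to 582 TPM at ZT4, 317 to 412 TPM at ZT12 and 318 to 854 TPM at ZT16. The DRF libraries had a median of 317 and a highest sum of 739 TPM. The leukocyte marker sum moved with them in part. The 10 markers summed to 755 to 1676 TPM at ZT8 and 584 to 668 TPM at ZT20. Most of that sum was Cd74 in each of the 8 libraries, with 679 to 1560 TPM at ZT8 and 503 to 561 TPM at ZT20. Cd74, which encodes the class II invariant chain, was the 1 marker of 7 tested that was called lower (980 ± 399 to 533 ± 28.4 TPM). The median log2 difference of the 7 was -0.13. The lymphocyte markers Cd3e and Ms4a1 were among 3 markers under 1 TPM in all 8 libraries. At ZT8 mouse 3 had the highest sum of both lists, whereas mouse 4 had the second highest interferon sum and the lowest leukocyte sum. The part of leukocytes in the interferon difference was not tested. Whether the difference belongs to the time or to these 4 mice cannot be told apart.

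**Figure D4:**
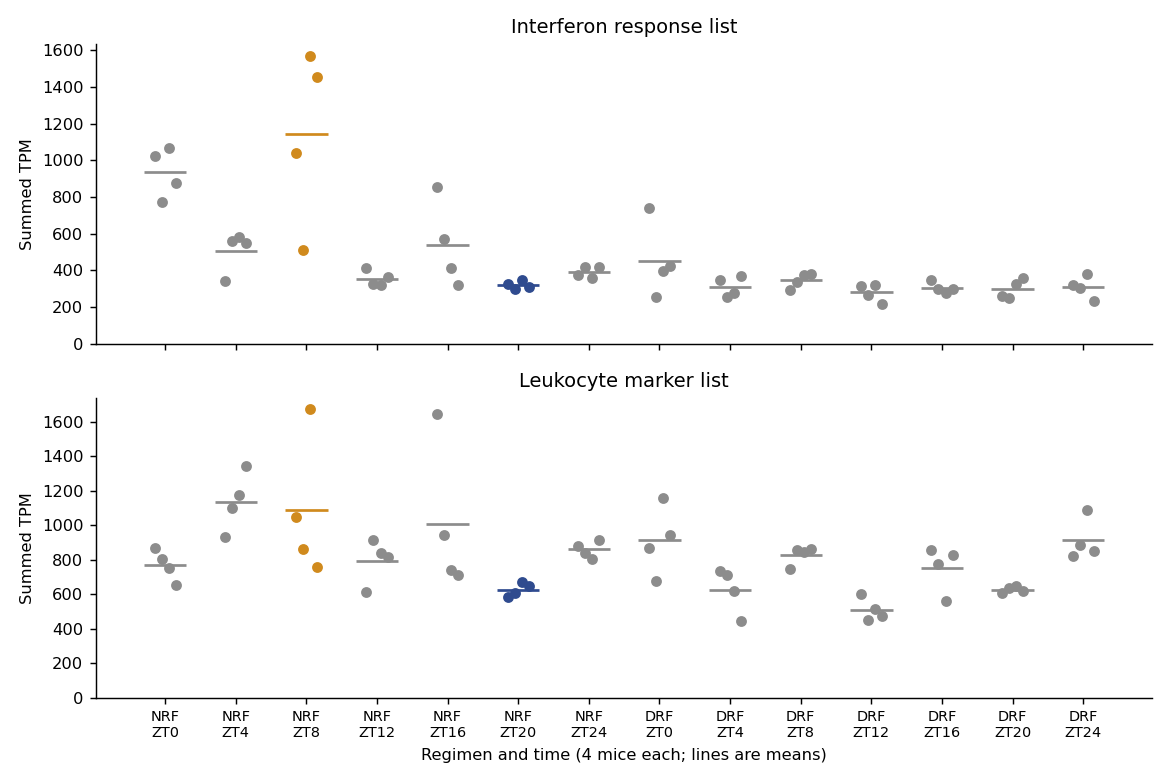
Summed TPM of the 13 interferon response genes (top) and of the 10 leukocyte markers (bottom) is shown for every library, 4 mice per regimen and time, with lines at the means. NRF ZT8 (509 to 1566 TPM) and NRF ZT0 (770 to 1069 TPM) held the highest interferon sums, and NRF ZT20 lay at 296 to 347 TPM.

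Other genes led the rises. Ppard, the nuclear receptor PPARδ, was 10.7, 8.85, 11.3 and 8.93 TPM at ZT8 and 80.6, 63.0, 44.9 and 54.2 TPM at ZT20. The means differed 6.11-fold with no overlap (2.47 ± 0.17 on the log2 scale, limma adjusted p = 1.02e-15). Nat8f5, of the N-acetyltransferase cluster, rose from 8.88 ± 3.77 to 40.6 ± 9.23 TPM, and Slc22a28, of the organic anion transporters, from 12.0 ± 6.06 to 49.3 ± 13.7 TPM, though both have close paralogues that can share reads. Dleu7 rose from 13.3 ± 4.75 to 41.9 ± 7.51 TPM and Loxl4, a lysyl oxidase, from 5.84 ± 3.43 to 22.2 ± 7.69 TPM. Mup22, a major urinary protein gene with near-identical copies, was 0, 0, 0.868 and 0 TPM at ZT8 and 2.97, 72.6, 3.13 and 9.19 TPM at ZT20. Mouse 2, the highest, also had the highest liver marker sum (659 TPM, compared with 300 to 404 TPM in the other 7), and the call (limma adjusted p = 0.0423) was lost without ZT20 mouse 2 or 4 or ZT8 mouse 1, 2 or 4. The part of liver RNA in it was not tested.

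To ask whether the difference depended on the feeding regimen, the same clock times were compared under DRF, where ZT8 is fed and ZT20 fasted. There 1777 genes differed (13.3%), with 6.53% higher and 6.79% lower at ZT20. The difference between the regimens was called in 3800 genes (28.5%). It was called in 933 of the 1566 higher genes (59.6%) and 1794 of the 2867 lower genes (62.6%), and these shares rest on the same 8 NRF libraries that chose the genes. Of the higher genes 166 were also called under DRF in the opposite direction and 130 in the same direction, and of the lower genes 282 and 267.

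Clock genes mostly had the same direction under both regimens. Of the 16 called, 14 were also called the same way under DRF and 0 the opposite way, and the regimens differed for 3. Nr1d1 was 111 ± 20.9 and 21.9 ± 7.51 TPM under DRF, a smaller fall than under NRF (difference between regimens -2.33 ± 0.36 on the log2 scale, limma adjusted p = 3.30e-06). Dbp was 160 ± 37.1 and 10.8 ± 2.56 TPM under DRF, and the difference between regimens did not pass (limma adjusted p = 0.195). Per2, which was not called under NRF, fell under DRF from 28.3 ± 7.33 to 10.5 ± 2.46 TPM, and the regimens differed by 1.74 ± 0.25 (limma adjusted p = 9.88e-07).

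Fuel genes often had opposite directions under the regimens. Of the 21 called fasting fuel genes, 19 differed between regimens and 10 were called in the opposite direction under DRF. Angptl4 rose under DRF from 6.23 ± 1.85 to 92.4 ± 41.0 TPM (difference between regimens -6.89 ± 0.59 on the log2 scale, limma adjusted p = 3.35e-12), and Pdk4 from 9.76 ± 4.01 to 309 ± 99.8 TPM (-6.64 ± 0.47, 1.10e-14). Pdk4 in the fasted phase was thus higher under DRF than under NRF in the group means, 309 and 93.0 TPM. Srebf1 fell under DRF from 56.3 ± 9.30 to 22.5 ± 6.17 TPM, and Cirbp rose from 41.4 ± 4.65 to 61.8 ± 3.15 TPM. Cyp24a1 and Vdr were also opposite, with Vdr at 152 ± 14.3 and 286 ± 8.94 TPM under DRF.

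Many chaperone and interferon genes differed between ZT20 and ZT8 under NRF, and few of these were called between the same times under DRF. This pair does not cover the other DRF times. Over all DRF libraries the ER list summed to between 4283 and 8629 TPM and the heat shock list to between 5337 and 11908 TPM. Of 11 called heat shock genes, 10 differed between regimens, 0 were called the same way under DRF and 2 the opposite way. Of 20 called ER list genes, 16 differed between regimens, 2 were called the same way under DRF and 0 the opposite way. Sdf2l1 was 26.2 ± 6.07 and 28.6 ± 6.13 TPM under DRF (limma adjusted p = 0.717), and the regimens differed by 2.43 ± 0.26 on the log2 scale (1.77e-09). Of the interferon genes 9 of 13 differed between regimens, and of the 11 called under NRF 0 were called under DRF in either direction. Irf7 was 16.6 ± 3.27 and 11.6 ± 1.73 TPM there (limma adjusted p = 0.274).

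**Figure D5:**
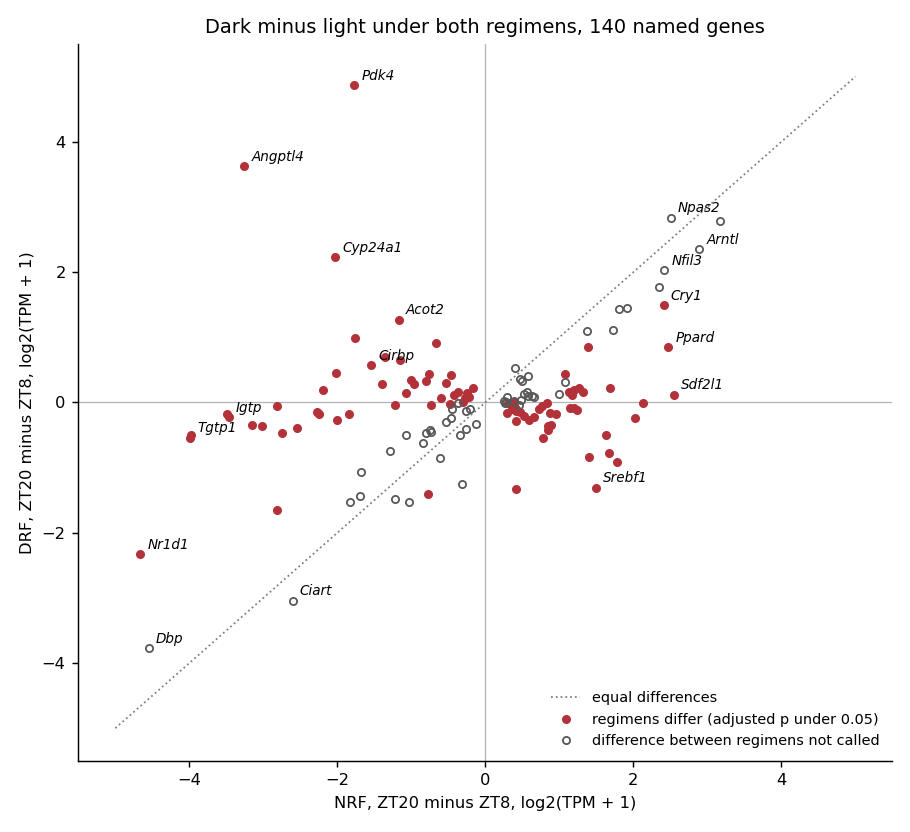
The difference between ZT20 and ZT8 on the log2(TPM + 1) scale under NRF (horizontal) and DRF (vertical) is shown for 140 genes, filled where the regimens differed with an adjusted p under 0.05, and the dotted line marks equal differences. Clock genes such as Dbp, Ciart and Arntl lay near the line, Angptl4, Pdk4, Acot2 and Srebf1 lay in the quadrants of opposite direction, and Sdf2l1 and the interferon genes lay near 0 on the DRF axis.

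A second pair of NRF groups in the same phases, ZT16 in the dark and ZT4 in the light, used other mice. In that pair 4312 genes differed (32.3%), 9.28% higher and 23.1% lower in the dark. Genes higher in the dark in both pairs numbered 406, which was 25.9% of the ZT20 and ZT8 list and 32.8% of the other list. Genes lower in both numbered 1399, or 48.8% and 45.5%. Another 166 of the higher genes (10.6%) and 82 of the lower genes (2.86%) were called in the opposite direction.

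The pairs overlapped to different extents in different lists. For clock genes 4 of the 16 called had the same call and 9 the opposite one. At ZT4 Npas2 was 11.2 ± 2.48 TPM and at ZT16 it was 1.28 ± 0.388 TPM, and Per3 was 7.20 ± 2.52 and 25.9 ± 2.41 TPM. For the ER list 16 of 20 had the same call and 2 the opposite one, and for heat shock genes 10 of 11 had the same call and 0 the opposite one. Hspa5 went from 290 ± 45.3 TPM at ZT4 to 1029 ± 140 TPM at ZT16, and Creld2 was 38.9 ± 4.96 and 183 ± 16.2 TPM. For fasting fuel genes only 5 of 21 had the same call, with Angptl4 at 36.7 ± 31.2 and 13.4 ± 6.6 TPM. Of the interferon genes 0 of 11 were called in the ZT16 and ZT4 pair in either direction, and the sums there were 340 to 582 TPM at ZT4 and 318 to 854 TPM at ZT16.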

How the data were processed

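The deposited table gave 1 value per gene and mouse for 17027 genes in 56 kidneys. Per the labels and the submitters' processing notes, poly(A) RNA was sequenced and HISAT2, Bowtie2 and RSEM were used with mm10 and GRCm38.p6. The authors name the deposited values TPM, but the columns behaved as other values, log2(CPM + 1) divided by exon length and scaled to a common sum. Reads were therefore rebuilt from them with GENCODE exon lengths, and linear TPM was computed for 16787 genes (98.59%), with 240 left out. A linear TPM had been planned for. Kidneys held 24.17 to 26.67 M rebuilt reads, and the precision rests on 4 mice per group.

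Differences were tested with limma 3.58.1 (R 4.3.3, trend) on log2(TPM + 1) over all 14 groups, for genes with a mean of at least 1 TPM, with Benjamini-Hochberg adjustment and a threshold of 0.05. Fold changes on this scale understate low genes. Alternatives were another scaling, filter, pseudocount (0.1), limma voom, a replicate block and leaving out libraries. The named genes were the 10 largest rises and falls with a mean of at least 10 TPM and separate groups, up to 6 called members of each list, all clock genes and 17 genes of fuel use, lipid synthesis, chaperones and transport. The members and lists were chosen with earlier results of these data known. The model was tested on simulated data. Some genes of these rules are not reported here.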

Additional observations from a re-analysis of the deposited data

Results flagged for a closer look

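For 78 named genes the difference between ZT20 and ZT8 differed between NRF and DRF (limma adjusted p under 0.05 for the difference itself). The values in brackets are the NRF difference minus the DRF difference on the log2 scale. They rest on 4 mice per group and use the same 8 NRF libraries as the comparison above.

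Among fuel and insulin genes the values were Angptl4 (-6.89), Pdk4 (-6.64), Acot2 (-2.44), Cpt1a (-1.81), Vnn1 (-1.68), Txnip (-2.74), Depp1 (-2.47) and Irs2 (-1.20). Lipid synthesis genes had the opposite sign, with Srebf1 (2.80), Scd2 (2.25), Mvd (1.33) and Fdps (1.23). Chaperones of the ER were at Sdf2l1 (2.43), Derl3 (1.47), Creld2 (1.35), Hyou1 (1.28), Hsp90b1 (1.17) and Hspa5 (1.04), and cytosolic and mitochondrial chaperones at Chordc1 (1.21), Fkbp4 (1.12), Hsp90aa1 (1.05), Ahsa2 (0.84), Ahsa1 (0.82) and Hspe1 (0.82). The cold-inducible genes were Cirbp (-2.12) and Rbm3 (-1.18).

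Clock genes with a difference were Nr1d1 (-2.33), Nr1d2 (-1.16), Cry1 (0.92), Per2 (1.74) and Rora (-0.39). Genes of amino acid use and ribosome assembly were Chac1 (2.44), Cars (0.73), Psph (0.61), Yars (0.52), Aars (0.46), Farsb (0.32), Bop1 (0.45), Lars (-0.67), Qars (-0.45), Npm1 (-0.35) and Ncl (-0.31). Genes of the glucocorticoid list were Mt2 (-2.06), Mt1 (-1.35), Tsc22d3 (1.27) and Hsd11b1 (1.24).

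Interferon response genes and GTPases were Tgtp1 (-3.46), Iigp1 (-3.32), Igtp (-3.24), Gbp10 (-2.81), Irgm2 (-2.76), Gbp6 (-2.66), Irf7 (-2.27), Irgm1 (-2.15), Ifit3 (-2.12), Ifit1 (-2.07) and Isg15 (-1.66). Renal transport, hormone and segment genes were Cyp24a1 (-4.26), Vdr (-1.58), Cyp2r1 (0.88), G6pc (1.0), Pck1 (-0.88), Slc38a3 (-1.21), Usp2 (0.62), Scnn1a (0.55), Nedd4l (-0.53), Car14 (-0.69), Slc4a4 (-0.84), Avpr1a (0.53), Avpr2 (0.85), Slc22a2 (0.38), Cyp2e1 (-1.25), Pvalb (0.97) and Calb1 (0.63). The remaining large rises were Ppard (1.62), Nat8f5 (2.15), Slc22a28 (2.26) and Dleu7 (2.13).

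In 10 of 230 groups of 4 mice, from 115 genes, 1 mouse stood apart by Dixon's criterion, and chance alone gives about 1 in 20 such groups. At ZT8 these were Mup22 in mouse 3 (0.868 TPM), Scd2 in mouse 1 (79.2 TPM), Rbm3 in mouse 3 (82.6 TPM), Vdr in mouse 1 (247 TPM), Cry2 in mouse 4 (23.1 TPM) and Aqp2 in mouse 1 (799 TPM). At ZT20 they were Cirbp in mouse 2 (19.0 TPM), Qars in mouse 2 (36.6 TPM), Avpr2 in mouse 2 (31.8 TPM) and Irf7 in mouse 2 (9.12 TPM).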

How the results depend on the processing

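Under the other scalings 0 genes called on TPM were called in the opposite direction. The balance of 2 lists turned with the median of ratios, ribosome biogenesis from 3 higher and 6 lower to 7 and 5, and potassium, chloride and acid genes from 1 and 2 to 4 and 2. Leaving out 1 mouse gave 3758 to 4156 genes for ZT20 and ZT8 under NRF, 3195 to 4446 for the regimen difference and 3703 to 4386 for ZT16 and ZT4. Requiring at least 1.5-fold left 1020, 1493 and 848 genes, which follows from the stricter rule. With only the 8 libraries of the ZT16 and ZT4 pair 1991 genes were called, and the cause was not tested. Higher genes made up 49.5% of the calls with the median of ratios, 47.3% with the deposited values, 46.0% with limma voom on rebuilt reads and 50.3% with the library sizes behind the deposited values.

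With the median of ratios, heat shock genes also had 0 lower, immediate early genes 0 lower, water genes 1 lower and phosphate and vitamin D genes 3 lower. Without ZT20 mice 1 and 2, an alternative chosen after seeing the data, 3353 genes were called (29.4% higher, 3161 shared with the calls above) and 3128 for the regimen difference. Lists then had these counts, with fewer samples as one difference. Heat shock genes had 2 lower, tRNA synthetases 4 higher and 3 lower, ribosome biogenesis 1 higher, insulin and FOXO 1 higher, immediate early genes 0 lower, sodium 1 higher, potassium, chloride and acid 0 higher, water 1 higher and 1 lower, phosphate and vitamin D 1 higher and 3 lower, and drug transport 0 lower. Markers called higher fell from 3 to 0 for renal cortex and from 1 to 0 each for renal medulla, podocytes and liver. The causes were not tested.

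Same-numbered mice of the groups did not deviate together (r = -0.441, 0.029, 0.056 and 0.001), which gave no sign that the numbers pair them. Deviations from means of 4 mice cannot exclude a weaker link. A replicate block gave 4410 genes for ZT20 and ZT8, 3775 for the regimen difference and 4310 for ZT16 and ZT4, with 1 library that has no matching number dropped. Of 130 called named genes 17 lost the call without 1 mouse, 5 to 13 at a time, and 102 kept it under every setting but the fold minimum. With 4 mice a group, an exact permutation test of 1 gene cannot go below p = 0.0286.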

Other observations

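Gene families were sorted by symbol after their values had been seen, so their counts are descriptions. Of all genes tested 11.7% were higher and 21.5% lower on TPM, and 17.8% and 18.1% with the median of ratios. All 15 tested guanylate-binding and immunity GTPase genes were lower at ZT20 (14 with the median of ratios), with a median log2 difference of -2.52. Tap1, a peptide transporter outside that family, fell from 58.4 ± 33.3 to 7.56 ± 0.576 TPM (SD, n = 4). Of 34 kinesin and tubulin genes 12 were higher (35.3%) and 1 lower (2.94%). Of 42 cytochromes P450 5 were higher (11.9%, near the share of all genes) and 17 lower (40.5%). Of 14 Krüppel-like factors 0 were higher and 6 lower (42.9%). Of 67 cytosolic ribosomal protein genes 0 were higher and 3 lower (0 and 1 with the median of ratios). Zinc finger genes depended on scaling, with 13 higher and 48 lower of 348 on TPM and 39 and 40 with the median of ratios. Their shares on TPM (3.74% and 13.8%) were below those of all genes.

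Among the next largest rises, Acmsd, an enzyme at a branch point of tryptophan breakdown, rose from 78.4 ± 24.1 to 230.0 ± 61.1 TPM. Slc8a1, the distal sodium-calcium exchanger, rose from 157.5 ± 27.9 to 432.6 ± 92.5 TPM (1.44 ± 0.17 on the log2 scale, limma adjusted p = 4.03e-09). Hmox1, haem oxygenase, rose from 51.0 ± 26.4 to 132 ± 37.8 TPM. Mgp, an inhibitor of calcification, rose from 83.2 ± 17.6 to 236 ± 31.1 TPM. In the ZT16 and ZT4 pair Acmsd (-1.15 on the log2 scale) and Slc8a1 (-0.72) were called in the opposite direction. Hmox1 was called in the same direction there (2.16), and Mgp did not pass (0.35).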
